A study of Macaca fascicularis with 3 samples.

Results

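The muscle miRNAs miR-1, miR-133 and miR-206 were followed in the kidney cortex of the cynomolgus monkey, Macaca fascicularis, by small RNA sequencing. They were taken by name from the table of raw counts, where 9 of 432 listed mature miRNAs belonged to them: mfa-miR-1-3p, mfa-miR-1-1-5p, mfa-miR-133a, mfa-miR-133b-3p, mfa-miR-133c-5p, mfa-miR-133c-3p, mfa-miR-133d-5p, mfa-miR-133d-3p and mfa-miR-206. The species prefix mfa- is left out from here on. The series had a single group of 3 naïve animals between 2 and 3 years of age, with 1 library per animal, so the comparisons are between miRNAs and between animals. The labels give neither sex nor batch, and nothing by which the animals differ.

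miR-1 and miR-133a are made from shared primary transcripts in heart and skeletal muscle, and miR-206 and miR-133b from another shared transcript in skeletal muscle. miR-1 and miR-206 carry the same seed and are known to promote muscle differentiation, while the miR-133 miRNAs have a different seed and are known to restrain smooth muscle and cardiac growth genes such as that of serum response factor. The kidney cortex holds no striated muscle of its own. It does hold smooth muscle, in the walls of arteries and arterioles. In a bulk library, fewer cells of a type and less miRNA per cell cannot be told apart.

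The libraries held 4305977, 4707892 and 3957188 counts assigned to listed miRNAs in animals 1, 2 and 3. Levels are given as CPM, counts per 1000000 of these. They compare reads, and whether reads of different miRNAs stand in the proportion of their molecules was not tested. Spans between animals use TMM-scaled CPM, in which each library total is corrected by a trimmed mean of M values from edgeR. Intervals are Wilson 95% confidence intervals unless named otherwise, and they cover counting error only, with each read taken as independent. The labels' protocols describe no molecular identifiers, and whether the reads are independent was not tested. The library of animal 3 held more miRNAs at unusually low levels than the others. Of 391 miRNAs that averaged 10 or more counts, 26 lay 4-fold or more below the mean of the other animals there on the log2 scale, against 2 in animal 1 and 2 in animal 2. Of the 6 muscle miRNAs among the 391, 0 did so, and results that turn on animal 3 are given with and without it below.

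Together the muscle miRNAs took 0.0516% ± 0.00898 (SD, n = 3) of the counts, or 516 CPM. Here miR-133c-5p and miR-133d-5p, whose counts are identical in every library, were counted once, which left 8 distinct profiles. Animals 1, 2 and 3 had 2663, 2243 and 1790 such counts. Their shares were 0.0618% (0.0595 to 0.0642), 0.0476% (0.0457 to 0.0497) and 0.0452% (0.0432 to 0.0474). Animal 1 was above the others, and the intervals of animals 2 and 3 overlapped.

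miR-1-3p, the strand of miR-1 that acts in muscle, was the most abundant of them. It had 2336, 1767 and 1298 counts in animals 1, 2 and 3. These correspond to 543 CPM (521 to 565), 375 CPM (358 to 393) and 328 CPM (311 to 346), with a mean of 415 CPM ± 113 (SD, n = 3). It was highest in animal 1, and on library totals its intervals did not overlap between animals. By mean CPM it stood at rank 112 of the 432 names, and at ranks 103, 121 and 117 in animals 1, 2 and 3. The median of all 432 names was 43.5 CPM, so miR-1-3p was in the upper part of the list while every other muscle miRNA was below that median by its mean.

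The miR-133 names came next, in the order miR-133d-3p, miR-133c-3p, miR-133b-3p and miR-133a. miR-133d-3p had 155, 198 and 200 counts in animals 1, 2 and 3, a mean of 42.9 CPM ± 7.31 (SD, n = 3). miR-133c-3p had 79, 156 and 148 counts, a mean of 29.6 CPM ± 10. miR-133b-3p had 43, 69 and 80 counts, a mean of 14.95 CPM ± 5.12. The last of the 4 names, miR-133a, which the table gives without an arm, had 19, 23 and 33 counts, a mean of 5.88 CPM ± 2.14. All 4 had their lowest CPM in animal 1 and their highest in animal 3. Their ranks by mean CPM were 217, 238, 281 and 338.

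These names do not follow the human miR-133 genes one for one. The authors' deposited table of normalized values pairs miR-133c-3p and miR-133b-3p alike with human miR-133a-3p, and miR-133c-5p and miR-133d-5p with human miR-133a-5p. It gives no human counterpart for miR-133d-3p or for miR-133a. Of the 9 names, 7 have a counterpart there, against 405 of all 432. Reads were matched to the miRNAs with 0 mismatches, and how reads that fit several near-identical names were divided is not given in the sources used here. The levels of the single miR-133 names are therefore uncertain, and their sum is given beside them. If reads that fit several names were counted under each, the sum counts them more than once. The names would then not be independent of each other.

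The 4 names summed to 296, 446 and 461 counts in animals 1, 2 and 3. The sum was 68.7, 94.7 and 116 CPM, a mean of 93.3 CPM ± 23.9 (SD, n = 3). Within the sum, miR-133d-3p was the largest name in every animal. It took 52.4% (46.7 to 58.0), 44.4% (39.9 to 49.0) and 43.4% (38.9 to 47.9) in animals 1, 2 and 3. For miR-133c-3p the values were 26.7%, 34.98% and 32.1%. miR-133b-3p took 14.5%, 15.5% and 17.4%, and miR-133a 6.42%, 5.16% and 7.16%. The intervals of each name overlapped between animals.

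miR-206, the skeletal muscle relative of miR-1, was near the lower end of the table. It had 11, 10 and 16 counts in animals 1, 2 and 3, which is 2.55 CPM (1.43 to 4.57), 2.12 CPM (1.15 to 3.91) and 4.04 CPM (2.49 to 6.57). The intervals of all 3 animals overlapped. miR-1-3p was 212-fold, 177-fold and 81.1-fold above it in animals 1, 2 and 3. The deposited table kept miRNAs with a minimum of 15 reads, and since the smallest sum over the libraries was 15, miR-206 with its sum of 37 stood not far above that limit.

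**Figure D1:**
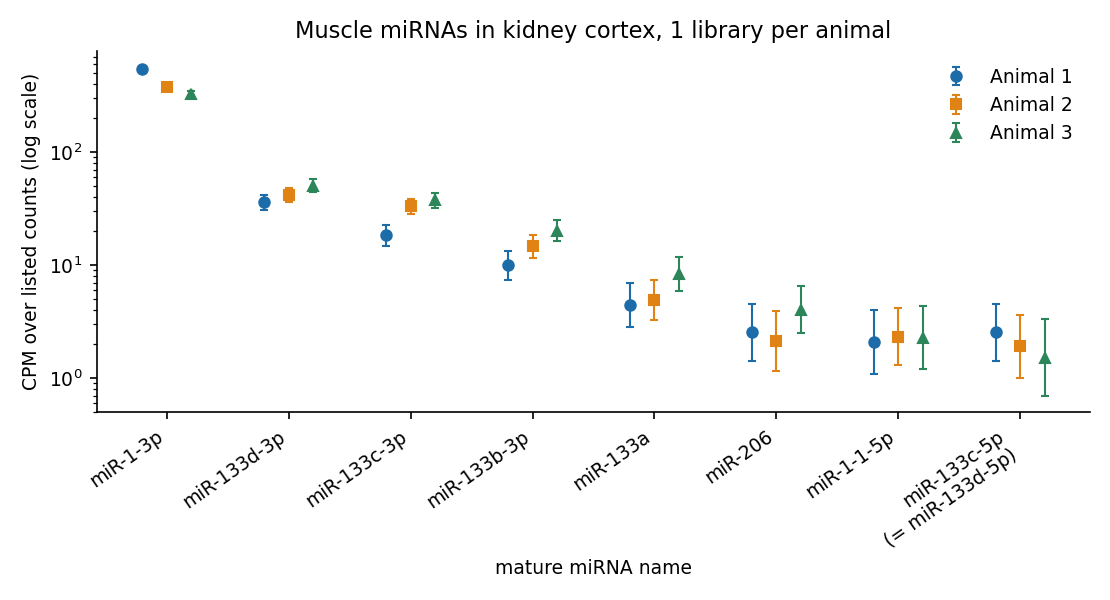
Level of each muscle miRNA name in each library as CPM over listed counts, on a log scale, with Wilson 95% confidence intervals. The points of miR-1-3p lie between 328 and 543 CPM, above those of every other name, and the 3 names at the right have intervals that overlap between names and animals.

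The order of the levels was examined for the 7 neighbouring pairs, within each library. It was taken from the mean CPM of these same libraries, so the pairs are no independent test of it. miR-1-3p exceeded miR-133d-3p in 3 of 3 animals, and the difference on the log2(CPM + 1) scale averaged 3.23 ± 0.607 (SD). miR-133d-3p exceeded miR-133c-3p in 3 of 3 animals by 0.56 ± 0.324, with separate counting intervals in 2 of them. miR-133c-3p exceeded miR-133b-3p by 0.93 ± 0.168, and miR-133b-3p exceeded miR-133a by 1.21 ± 0.196, both in 3 of 3 animals with separate intervals in each. miR-133a exceeded miR-206 in 3 of 3 animals by 0.80 ± 0.171, but their counting intervals overlapped in every animal. For these 5 pairs a two-sided exact permutation test that flips signs over the animals gave p = 0.25, its lowest possible value here, and 0.35 after Benjamini-Hochberg adjustment over the 7 pairs. The design cannot reach a threshold of 0.05.

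Below miR-206 the order was not resolved. miR-206 exceeded miR-1-1-5p in 2 of 3 animals by 0.24 ± 0.361 (exact permutation p = 0.5, adjusted 0.583). miR-1-1-5p exceeded miR-133c-5p in 2 of 3 animals by 0.12 ± 0.298 (exact permutation p = 0.75, adjusted 0.75), and without animal 3 the mean difference turned to -0.0028.

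The opposite arms were rare. miR-1-1-5p, the passenger strand of miR-1, had 9, 11 and 9 counts in animals 1, 2 and 3, a mean of 2.23 CPM ± 0.128 (SD, n = 3). Of the counts of both miR-1 arms, the 3p arm took 99.6% (99.3 to 99.8), 99.4% (98.9 to 99.7) and 99.3% (98.7 to 99.6) in animals 1, 2 and 3. The 3p name carries no hairpin number, while the 5p name is that of miR-1-1, so the share may not be that of a single hairpin.

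miR-133c-5p and miR-133d-5p each had 11, 9 and 6 counts, and the table does not separate them. Set against these counts, miR-133c-3p took 87.8% (79.4 to 93.0), 94.5% (90.0 to 97.1) and 96.1% (91.8 to 98.2) in animals 1, 2 and 3. miR-133d-3p took 93.4% (88.5 to 96.3), 95.7% (91.9 to 97.7) and 97.1% (93.8 to 98.7). The 3p arm was the major one in every animal for the names of miR-1, miR-133c and miR-133d. Among 120 other hairpins for which the table names both arms, averaging 10 or more counts in sum, the major arm held a median of 94.9%. The major arm's mean share was larger than the 99.4% of miR-1 in 26 of them, than the 92.8% of miR-133c in 70 and than the 95.4% of miR-133d in 58.

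The next question was whether the muscle miRNAs differed between animals by more than counting error. A chi-square test of equal proportions, with TMM-scaled library sizes as the expectation, was run for the 391 miRNAs that averaged 10 or more counts, with Benjamini-Hochberg adjustment over all of them. It compares libraries and not conditions. Of the 9 names, 6 reached that minimum, and miR-1-1-5p, miR-133c-5p and miR-133d-5p did not. The test called 5 of the 6 at an adjusted p of 0.05, against 80.6% of all miRNAs tested. At these depths most miRNAs were called, so this share does not set the muscle miRNAs apart.

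miR-1-3p and the 4 more abundant miR-133 names differed in opposite directions. On the TMM-scaled CPM, miR-1-3p was at 537, 357 and 349 in animals 1, 2 and 3. The adjusted p of the chi-square test was 2.89e-51. Animal 2 was at 0.665 times animal 1 (exact conditional binomial 95% interval 0.625 to 0.708) and animal 3 at 0.650 times (0.607 to 0.696). Animal 3 was at 0.978 times animal 2, with an interval that includes equality (0.909 to 1.05), and which of these 2 was lower turned with the scaling: animal 3 by totals and TMM, animal 2 by DESeq2 size factors. Without animal 1 the adjusted p was 0.593, so the call rests on that animal.

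The 4 more abundant miR-133 names were lowest in animal 1, where miR-1-3p was highest. miR-133c-5p and the identical miR-133d-5p, too low to be tested, had the animal order of miR-1-3p, at 2.53, 1.82 and 1.61 TMM-scaled CPM in animals 1, 2 and 3, with an exact interval of 0.194 to 1.88 for animal 3 over animal 1. miR-133c-3p was at 18.1, 31.5 and 39.8 TMM-scaled CPM in animals 1, 2 and 3 (adjusted p = 1.17e-07 by the chi-square test). Animal 3 was at 2.19 times animal 1 (exact interval 1.66 to 2.92). Animal 1 decided this call, since the adjusted p without it was 0.0605. miR-133b-3p was at 9.88, 13.9 and 21.5 (adjusted p = 1.33e-04), with animal 3 at 2.18 times animal 1 (1.48 to 3.23). miR-133d-3p was at 35.6, 40.0 and 53.7 (adjusted p = 3.55e-04), with animal 3 at 1.51 times animal 1 (1.22 to 1.87). miR-133a was at 4.36, 4.64 and 8.87 (adjusted p = 0.0162), with animal 3 at 2.03 times animal 1 (1.12 to 3.78).

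The calls of the last 3 names turned on animal 3. Without that library the adjusted p was 0.119 for miR-133b-3p, 0.377 for miR-133d-3p and 0.884 for miR-133a, and only miR-1-3p and miR-133c-3p of the muscle miRNAs were called. The share called among all miRNAs was 59.3% without animal 3. In the comparison of animals 2 and 1 alone, the ratio of miR-133c-3p was 1.74 (exact interval 1.32 to 2.31), that of miR-133b-3p 1.41 (0.950 to 2.11), that of miR-133d-3p 1.12 (0.905 to 1.39) and that of miR-133a 1.06 (0.554 to 2.07). miR-206 was not called, with 2.53, 2.02 and 4.30 TMM-scaled CPM and an adjusted p of 0.147. The animal order of these 4 miR-133 names, with animal 1 lowest and animal 3 highest, was the same with library totals, TMM and DESeq2 size factors.

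**Figure D2:**
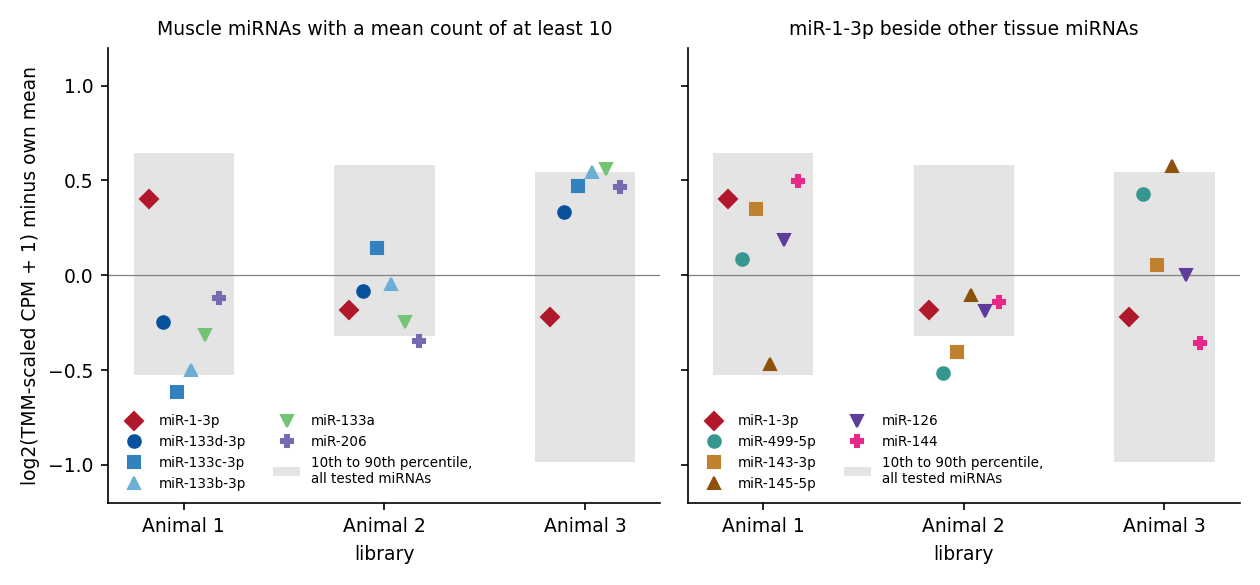
Centred levels by library, log2(TMM-scaled CPM + 1) minus each miRNA's own mean over the 3 animals, for the 6 muscle miRNAs averaging 10 or more counts (left) and for miR-1-3p beside other tissue miRNAs (right). Grey bars span the 10th to 90th percentile of all 391 tested miRNAs. Of miR-144 and miR-451, the right panel draws miR-144 only. miR-1-3p is above its mean in animal 1 alone, where the 4 miR-133 names drawn and miR-206 are all below theirs, and in animal 3 the positions are exchanged.

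The proportion of miR-1-3p to miR-133 is free of scaling between libraries, and it was computed after their values were seen. Its size is uncertain, since the summed miR-133 names may count some reads more than once. miR-1-3p exceeded the summed miR-133 names by 7.89-fold, 3.96-fold and 2.82-fold in animals 1, 2 and 3. As a share of both, miR-1-3p took 88.8% (87.5 to 89.9), 79.8% (78.1 to 81.5) and 73.8% (71.7 to 75.8) in animals 1, 2 and 3. The intervals did not overlap. The mean log2 ratio was 2.15 ± 0.757 (SD) and was 2.48 without animal 3, where the ratios of animals 1 and 2 still differed. Over all muscle miRNAs, miR-1-3p made 87.7%, 78.8% and 72.5% of the counts in animals 1, 2 and 3.

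**Figure D3:**
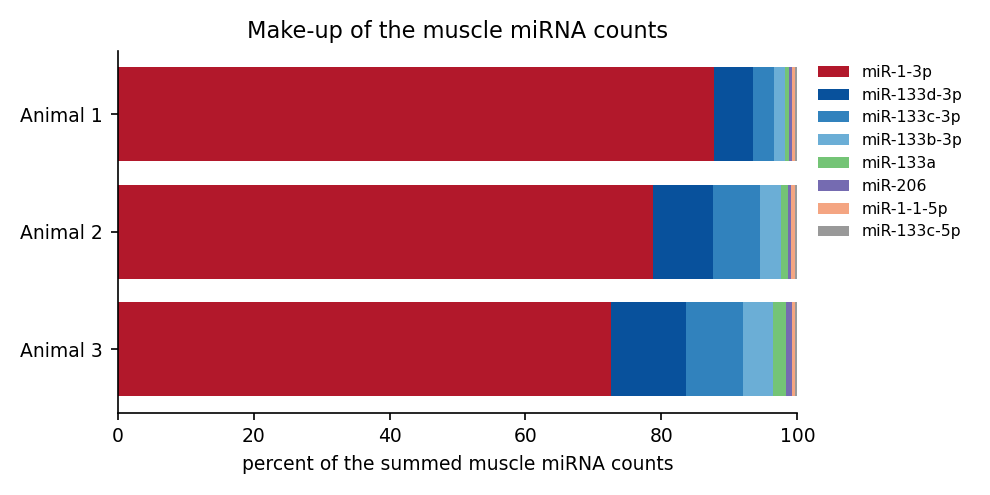
Make-up of the summed muscle miRNA counts in each library, in percent, with miR-133c-5p and the identical miR-133d-5p drawn once. miR-1-3p takes 87.7% in animal 1 and 72.5% in animal 3, and the 4 miR-133 names fill most of the rest.

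The size of the spread was then set beside that of the whole table. The highest animal exceeded the lowest by 1.54-fold for miR-1-3p and 1.51-fold for miR-133d-3p. The spans were 2.19-fold for miR-133c-3p, 2.18-fold for miR-133b-3p, 2.13-fold for miR-206 and 2.03-fold for miR-133a. Thus 4 of the 6 spanned more than 2-fold, against 39.9% of all miRNAs tested. With library totals in place of TMM the number was 2, without animal 1 it was 1, and without animal 3 it was 0. The share over all miRNAs tested was not computed under these settings, so these numbers have no such value beside them. The median span of the 6 was 2.08-fold beside 1.71-fold over the 391, and the median SD of log2(TMM-scaled CPM + 1) was 0.45 beside 0.38. miR-206 and miR-133a had so few counts that their spans were partly counting error: the exact interval of miR-206 for animal 3 over animal 2 ran from 0.908 to 5.25.

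**Figure D4:**
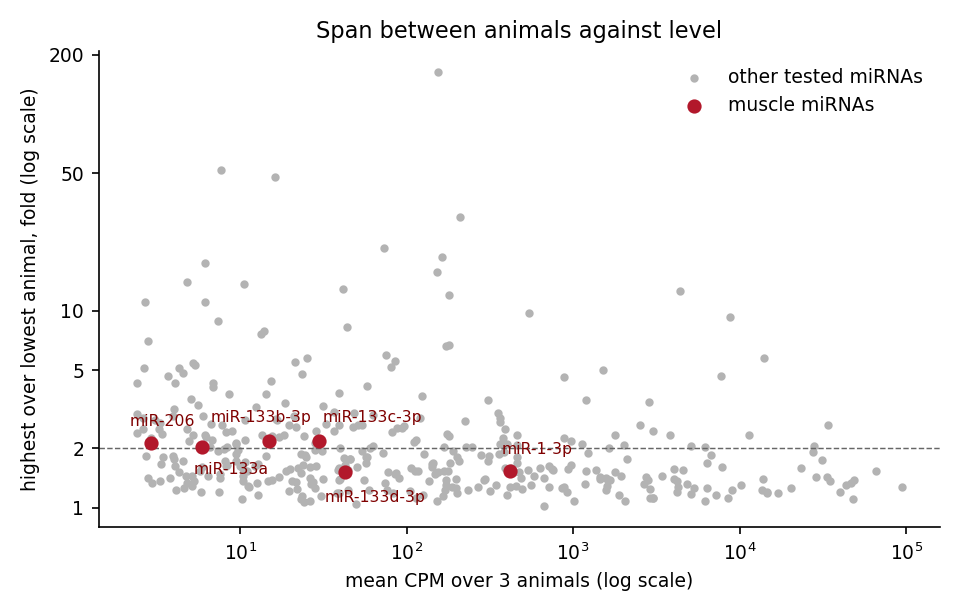
Highest over lowest animal on the TMM-scaled CPM against mean CPM, both on log scales, for miRNAs averaging 10 or more counts. The 6 muscle miRNAs lie between 1.51-fold and 2.19-fold, around the dashed line at 2-fold, and 3 other miRNAs with 0 counts in a library have no finite span and are not drawn.

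The miRNAs whose pattern over the 3 animals was closest to that of miR-1-3p were sought among 178 others with a mean of at least 100 CPM. Likeness was the Euclidean distance between centred log2(TMM-scaled CPM + 1) values. It is a description over 3 libraries, in each of which all miRNAs share the same depth and scaling. The 5 nearest were miR-222-3p, miR-374a-5p, let-7b-5p, miR-495-3p and miR-455-5p, at distances from 0.0594 to 0.141, beside a median of 0.678. miR-222-3p had 2606, 2086 and 1471 counts in animals 1, 2 and 3, a mean of 473 CPM ± 120 (SD, n = 3). let-7b-5p was higher, at a mean of 4018 CPM ± 1080, and miR-374a-5p was at 149 CPM ± 35.9. At a minimum of 10 CPM, 3 of the 5 stayed among the nearest. By the same measure miR-133c-5p, identical to miR-133d-5p and with few counts, lay at 0.192 from miR-1-3p, below that median. The other 4 miR-133 names lay above it, at 0.858 for miR-133d-3p, 1.06 for miR-133a, 1.19 for miR-133b-3p and 1.28 for miR-133c-3p. Between these 4 names themselves the distances ran from 0.235 to 0.50.

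Other miRNAs known from muscle were read from a list of miR-208a, miR-208b, miR-499, miR-486, miR-378 and miR-378a. miR-208a and miR-208b, which lie in cardiac myosin genes, matched no name in the table and were not analysed here. miR-499-5p, from the MYH7B myosin gene, was near miR-1-3p in level. It had 1723, 1289 and 1865 counts in animals 1, 2 and 3, a mean of 382 CPM ± 100 (SD, n = 3), at rank 117 of 432 where miR-1-3p had rank 112. miR-1-3p exceeded it in animals 1 and 2 by 1.36-fold and 1.37-fold and was below it in animal 3, at 0.696 times its level. The mean log2 difference was 0.12 ± 0.560 (SD), with a two-sided exact permutation p (sign flips) of 1.

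Its opposite arm, miR-499-3p, had 39, 40 and 49 counts. miR-486-5p, known from both muscle and red cells, had 89, 201 and 187 counts and miR-486-3p had 12, 32 and 24, so that both arms were lowest in animal 1 as the 4 miR-133 names were. miR-378a, which is found in many tissues with active oxidative metabolism, was at 1891 CPM ± 181 and made most of the list. Of the 5 names listed, 4 were called by the chi-square test, with miR-499-3p at an adjusted p of 0.0580, a share near the 80.6% of all miRNAs tested. The list summed to 2177, 2426 and 2373 CPM in animals 1, 2 and 3. miR-378d was not on the list and was added after its values were seen. It had 2846, 3637 and 8533 counts, and with it the sums were 2838, 3198 and 4529 CPM, highest in animal 3.

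Against the more abundant listed miRNAs of the smooth muscle, endothelium and blood of the tissue, miR-1-3p was low. miR-145-5p, the main smooth muscle miRNA of the table, was 36.5-fold, 70.7-fold and 116-fold above miR-1-3p in animals 1, 2 and 3. miR-143-3p, from the same primary transcript as miR-145, was 13.3-fold to 18.6-fold above it. miR-126 of endothelial cells was 91.9-fold to 124-fold above it, and miR-451 of red cells 8.05-fold to 16.4-fold. These 4 were above miR-1-3p in 3 of 3 animals, with a two-sided exact permutation p (sign flips) of 0.25 each, the smallest possible, and 0.333 after adjustment over 8 such relations. miR-144, the partner of miR-451, was near miR-1-3p in level, at 1.17, 1.13 and 0.993 times it in animals 1, 2 and 3 (exact permutation p = 0.5, adjusted 0.571). The opposite arms of the smooth muscle list lay below miR-1-3p in every animal. miR-145-3p was at 0.650, 0.707 and 0.797 times it in animals 1, 2 and 3, and miR-143-5p had a mean of 16.1 CPM.

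Between animals, these miRNAs moved in more than one way. miR-145-5p was lowest in animal 1 and highest in animal 3, at 19578, 25230 and 40398 TMM-scaled CPM, which is the order of the 4 more abundant miR-133 names. miR-143-3p was highest in animal 1, at 7982, 4733 and 6501, and miR-144 too, at 626, 403 and 346, as miR-1-3p was. Its more abundant partner miR-451 was instead highest in animal 3, at 4322, 3708 and 5727. miR-145-3p was at 349, 252 and 278. miR-143-5p had 9 and 5 counts in animals 1 and 2 but 179 in animal 3. The smooth muscle list summed to 28215, 31785 and 44412 CPM, the endothelial miR-126 to 49842, 39923 and 40779 and the erythroid list to 5001, 4324 and 5712. Whether the content of vessel wall or blood has a part in the levels of miR-1-3p and miR-133 was not tested.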

How the data were processed

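Small RNA of kidney cortex from 3 animals was analysed, 1 library each. Per the labels' protocols, 25 to 30 mg of tissue was used per sample, small RNA was enriched from 5 µg of total RNA, and 12 ng of it entered each library. The deposited counts are whole reads per mature miRNA, which the authors mapped with 0 mismatches, per the file headers. The aligner, the miRNA release and the treatment of reads that fit several names are not given in the sources used here. The authors' normalized signal was made with edgeR, per the file headers, and in each library 100% of its values equal the raw count times a single factor (0.989, 0.951 and 1.06), within rounding. It served as an alternative scaling and 0 further per-sample columns were left unused.

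Computed here were CPM, TMM and DESeq2 scaling (edgeR 4.0.16 and DESeq2 1.42.0 in R 4.3.3), Wilson and exact intervals, the chi-square test and sign-flip tests (scipy 1.17.1). The chi-square script was tested on simulated data. The 9 names, the marker lists, the tests and the alternatives were chosen with earlier results of these data known. The named miRNAs are these 9, the 5 nearest to miR-1-3p and the listed tissue miRNAs. The chi-square p-values set differences between libraries against counting error, with each read taken as independent. The sign-flip p-values concern the mean within-library difference over the animals. Animal and library are not separated. Sequences and genome positions were not used here.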

Additional observations from a re-analysis of the deposited data

How the results depend on the processing

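All 3 animals form 1 group, so no pairing of conditions was possible, and the sign-flip tests pair miRNAs within a library. Of 42 recalculated values of the comparisons, 8 moved. The number of muscle miRNAs spanning more than 2-fold, 4 by TMM, was 2 with library totals and 2 with the authors' normalized signal, and ranged from 0 to 3 when 1 animal was left out, being 1 without animal 1 and 0 without animal 3. At a fixed scaling a span over fewer animals cannot be wider, but TMM was recomputed for each set of animals. The share of all miRNAs spanning more than 2-fold was not computed at these alternatives. Without animal 2 the spans of the 4 more abundant miR-133 names widened, that of miR-133c-3p from 2.19-fold to 2.31-fold. Those of miR-1-3p and miR-206 narrowed. The number called by the chi-square test, 5 of 6, was 3 of 3 at a mean count of at least 100, which tests fewer names and called 94.6% of all miRNAs tested. It ranged from 2 to 5 when 1 animal was left out, being 3 of 7 without animal 1, 5 of 6 without animal 2 and 2 of 8 without animal 3, where the tested names changed with the mean count and 65.2%, 75.4% and 59.3% of all miRNAs tested were called. It stayed at 5 of 6 with library totals, DESeq2 size factors and the G test, where 81.1%, 79.8% and 81.1% of all miRNAs tested were called. With no minimum it was 5 of 8, and 75.9% of all miRNAs tested were called. The number of nearest patterns shared was 3 of 5 at a minimum of 10 CPM, which adds candidates. The difference of miR-1-1-5p and miR-133c-5p ranged from -0.0028 to 0.29 when 1 animal was left out, the reversed value being that without animal 3. The difference of miR-133a and miR-206, 0.80, was 0.99 at a pseudocount of 0.1 CPM and 0.45 at 5 CPM, and that of miR-133b-3p and miR-133a, 1.21, was 0.86 at 5 CPM. The share of counts, the number of neighbouring pairs in the same order in every animal, the arm shares and the ratio of miR-1-3p to miR-133, whose alternatives were chosen after seeing the data, kept within their limits. For the shares and the ratio the limit was 1 SD over the 3 animals, which leaving out 1 animal could not exceed. Nor could a changed pseudocount or a left-out animal exceed the limit for the order. These alternatives could not fail, so they say nothing about robustness. Only the share with both names of the identical pair and the arm shares from summed counts could have moved. Depth limits miR-206, miR-1-1-5p and miR-133c-5p, whose counts lie between 6 and 16 in every library.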
